A study of Schizosaccharomyces pombe with 2 samples.

Results

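Copy number was examined in 3 sets of probes that lie outside the chromosome maps of a fission yeast tiling array: 61 probes of mitochondrial DNA, 110 of the mating-type (mat) region and 129 of pNSU clones. They were chosen by the start of their names alone, and all 300 of them, of 41551 probes that were not controls, were used. None of the 300 is listed in the authors' series table of the same arrays, which holds 41251 probes of the 3 chromosomes. Each name carries a position along its own sequence, starting at 0, in steps of 300 bases. No source used here names the genome build behind these positions, and probe sequences were not used here, so that positions are those of the probe names and no gene is assigned to a single probe.

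The arrays compared genomic DNA of a sap1-1 revertant with that of the wild type of Schizosaccharomyces pombe, a haploid yeast. The revertant DNA, labelled with Cy5 (red), came from a strain whose background is given as 972h and whose genotype is given as sap1-1, and the wild-type DNA, labelled with Cy3 (green), came from the same background. Both arrays lay on 1 slide with the same dye orientation, and they form 1 group of 2 replicates of the revertant with the wild type as the only control. The labels do not say whether the replicates are separately isolated revertants, nor whether both arrays held the same wild-type DNA. DNA of unreverted sap1-1 cells was not analysed here.

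The mitochondrial genome of fission yeast is a small circular DNA that is present in many copies per cell and encodes subunits of the respiratory chain, of the ATP synthase and the mitochondrial ribosomal RNAs. The mat region on chromosome II holds the expressed cassette mat1 and the silent cassettes mat2 and mat3, which lie in heterochromatin and serve as templates for mating-type switching. The Sap1 protein was first known for a role in that switching and binds DNA near mat1, at replication fork barriers and at retrotransposon ends. The name pNSU belongs to plasmid clones of telomere-adjacent DNA, which in this yeast consists of repeats shared between chromosome ends.

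The measure was the log2 ratio of the revertant over the wild-type signal minus the median of the array, so that 0 is the level of a typical probe and a value above 0 is a higher signal in the revertant. Probes of 1 set share DNA and are not replicates, and 2 arrays give an exact sign permutation no p below 0.5, so that set medians and differences between sets are given without a test. Single probes were tested against 0 with limma over 41538 probes, with Benjamini-Hochberg adjustment at 0.05. That test called 80.7% of all probes, 40.0% higher and 40.8% lower, and the arrays gave the probes nearly the same order (Spearman's rho 0.97 over all probes, which share both arrays, as a description). A call says that the mean of both arrays lay away from 0 against a spread that limma draws largely from all probes. Its SE was 0.08 for the pNSU77 probe at 1500, whose SD over the arrays was 0.48. It was 0.07 for the mat probe at 3300, whose SD was 0.001. The probes' own effects on the ratio were not removed, since the dyes were not swapped. All 300 members were well above background in both channels on both arrays, and none had an outlier flag. Precision is limited by there being 2 arrays.

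The mitochondrial probes had the highest ratios of the 3 sets. Their median log2 ratio was 1.98 in replicate 1 and 1.73 in replicate 2, a mean of 1.86 ± 0.17 (SD, n = 2) or 3.63-fold. On both arrays 59 of the 61 probes were above 0, against 46.2% of all probes, and the remaining 2 had opposite signs. At least 1 on both arrays, that is 2-fold or more, was reached by 55 of the 61, against 1.93% of all probes, and at least 0.5 by 58, against 14.5%. By limma 59 were called higher and 0 lower, against 40.0% and 40.8% of all probes. These counts include 36 probes saturated in a channel. Under a loess correction of the ratio on brightness within each array, the mean of the medians was 0.94. There limma called 57 higher and 3 lower, against 40.6% and 40.2% of all probes. The call of the probe at 8700 turned from higher to lower. The amount of mitochondrial DNA per cell and its recovery during cell lysis and extraction cannot be told apart here, since both change its share in the extracted DNA.

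Much of the mitochondrial DNA was too bright for the scanner. The median spot in the wild-type channel read 53021 in replicate 1 and 56366 in replicate 2, and the median revertant spot read 65528 and 61236, where 65528 is the saturation value of the scanner. In the revertant channel 34 and 28 of the 61 spots were saturated in replicates 1 and 2, and in the wild-type channel 14 and 20. Over all probes 86 and 84 spots were saturated in the revertant channel. In all, 36 mitochondrial probes were saturated in at least 1 channel of 1 array, and 25 were not saturated anywhere.

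The 25 unsaturated probes carry the measured ratio. Their median was 1.95 in replicate 1 and 1.61 in replicate 2, a mean of 1.78 ± 0.24 (SD, n = 2) or 3.44-fold. Of these, 20 were at least 1 on both arrays, against 1.5% of all unsaturated probes. Under loess correction the mean of the medians of the 25 was 1.09. A further 12 probes were saturated in the revertant channel of both arrays but in the wild-type channel of neither, so that their ratios are lower bounds. Their medians of 2.27 and 1.93 correspond to at least 4.29-fold. The probe at 16500 gave the largest of these bounds, with 2.46 in replicate 1 and 2.38 in replicate 2, at least 5.36-fold. In the wild-type channel it read 37382 and 34799.

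The remaining saturated probes say less. In 12 probes both channels were saturated on both arrays, and their ratios lay in a narrow band from 1.71 to 1.96 in replicate 1 (SD over probes 0.09, against 0.72 over the 25 unsaturated probes). With both raw signals at the ceiling this ratio is set by the scaling of the channels, so that no fold is drawn from these 12. The probe at 15000 was saturated in the wild-type channel alone on both arrays, so that its 1.59 and 1.32 are upper bounds. The other 11 were saturated in different channels on the 2 arrays or on 1 array.

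**Figure D1:**
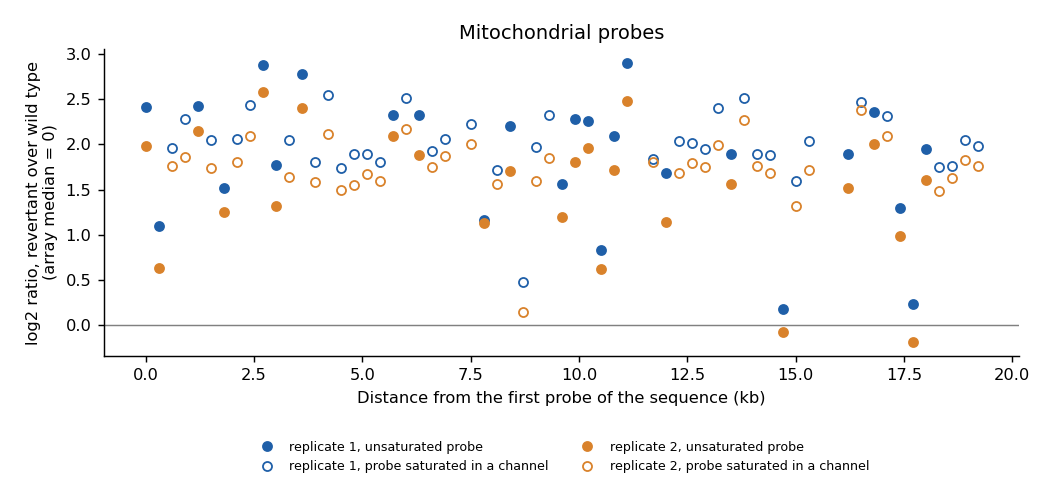
Log2 ratio of the revertant over the wild type (array median at 0) for the 61 mitochondrial probes against their distance from the first probe in kb, with replicate 1 in blue and replicate 2 in orange; filled points are unsaturated probes and open points are probes saturated in a channel. At each of the 25 unsaturated probes the point of replicate 2 lies below that of replicate 1, and 2 probes, at 14700 and 17700, have opposite signs on the 2 arrays.

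The unsaturated mitochondrial probes spanned a wide range. The highest was the probe at 2700, with 2.87 in replicate 1 and 2.57 in replicate 2, a mean of 2.72 (limma SE 0.07). In the wild-type channel it read 20372 and 21982, and in the revertant channel 39686 and 38669. The probe at 11100 followed with 2.89 and 2.48, then that at 3600 with 2.77 and 2.40 and that at 1200 with 2.43 and 2.15. All 4 read below 40000 in the wild-type channel on both arrays, where the ceiling of the revertant channel leaves room for higher ratios than at brighter probes.

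The lowest unsaturated probes stood apart from this level. The probe at 17700 had 0.24 in replicate 1 and -0.18 in replicate 2 and was not called by limma (adjusted p = 0.745). It read 57284 and 59636.5 in the wild-type channel but only 18178 and 16413.5 in the revertant channel, so that neither channel was saturated. The probe at 14700 was alike, with 0.18 and -0.07 (adjusted p = 0.499 by limma), wild-type signals of 54122.5 and 55324 and revertant signals of 16435.5 and 15667. The next lowest were the probes at 10500, with 0.83 and 0.62, and at 300, with 1.10 and 0.63. A low ratio was also found at 8700, with 0.47 and 0.15, where the wild-type spot of replicate 2 was saturated. These 5 probes lay at separate places. The probe at 17700 lies between unsaturated probes with 1.30 and 0.99 and with 1.95 and 1.61, and the probe at 10500 between unsaturated probes with 2.26 and 1.96 and with 2.10 and 1.72. Both neighbours of the probe at 14700 were saturated, the left one in both channels and the right one in the wild-type channel, so that no difference from them is drawn.

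Along the sequence, 5 steps of 2 kb held at least 3 unsaturated probes. Over those probes the mean of the array medians was 1.79 from 0 kb (4 probes) and 2.58 from 2 kb (3 probes). It was 1.95 from 8 kb (3 probes), 2.01 from 10 kb (4 probes) and 1.42 from 16 kb (4 probes). When saturated probes were included, the steps from 2 kb and from 16 kb had 1.93 each. Neighbouring mitochondrial probes differed in size by a median of 0.45, against 0.40 over all pairs. Successive unsaturated ones differed by 1.04, against 0.66, so that no trend along the sequence is drawn. With saturated probes included, of 16 stretches of 1 kb with at least 3 probes, the highest was that from 2000 to 2999 (2.44 and 2.09) and the lowest that from 17000 to 17999 (1.30 and 0.99), which holds the probe at 17700. The first probe, at 0, had 2.41 and 1.98, and the last, at 19200, had 1.98 and 1.76 with the revertant channel saturated. As a description over the 25 unsaturated probes, which share the arrays and their DNA, Spearman's rho of the ratio was -0.34 with position and -0.60 with the wild-type signal. Nothing is drawn from the rho with the wild-type signal. That signal is the denominator of the ratio, and leaving out saturated probes removes high ratios at bright probes.

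Chromosome probes of the same brightness had lower ratios than the mitochondrial probes. Unsaturated chromosome probes with a wild-type signal of 20000 to 30000 had a mean of medians of 0.18, and the 4 mitochondrial probes in that range had 2.48. Between 30000 and 40000 the values were 0.16 for the chromosomes and 1.74 for 6 mitochondrial probes, and between 40000 and 50000 they were 0.14 and 1.87, again for 6. In the brightest range, from 50000 to the ceiling, 6 mitochondrial probes had 0.80, against 0.16 for the chromosomes. Of the 25 unsaturated mitochondrial probes 21 lay above the 95th percentile of the chromosome probes of their own brightness range, and 0 lay below the 5th. An unsaturated spot can hold only ratios that keep the revertant signal under the ceiling, and this limit falls as the wild-type signal rises. Higher ratios in the brightest range are therefore found among the saturated probes.

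**Figure D2:**
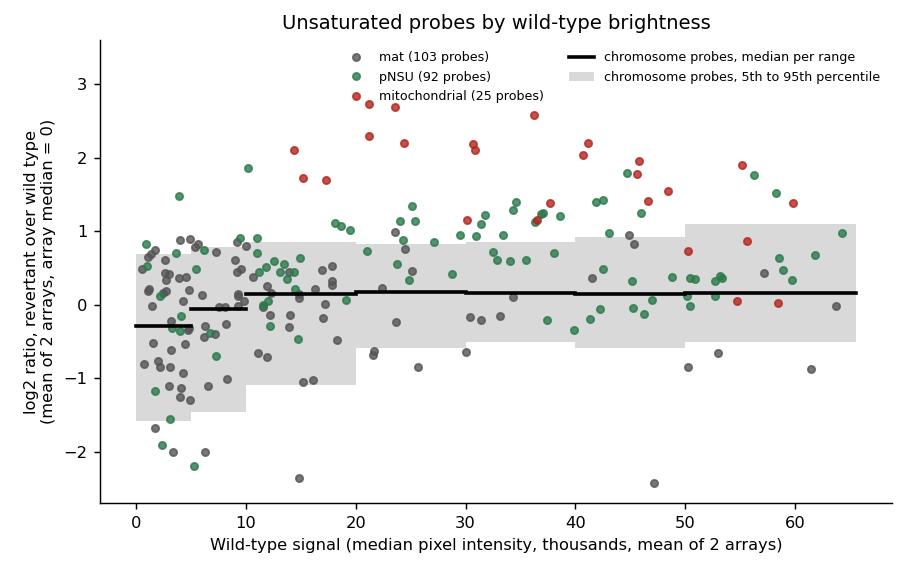
Mean log2 ratio of both arrays against the wild-type signal (median pixel intensity divided by 1000, mean of 2 arrays) for the unsaturated probes of the mat set (103, grey), the pNSU set (92, green) and the mitochondrial set (25, red); black bars are medians of the chromosome probes in each brightness range and grey bands run from their 5th to their 95th percentile. The chromosome medians stay between -0.28 and 0.18, and 21 of the 25 mitochondrial points lie above the bands.

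The 2 replicates differed in the mitochondrial level. All 25 unsaturated probes were lower in replicate 2 than in replicate 1, while 47.9% of all probes were, and the same 25 were lower under loess correction, a check chosen after seeing the data. Their median difference, replicate 2 minus replicate 1, was -0.36, with a range from -0.55 at 12000 (1.69 and 1.14) to -0.03 at 7800 (1.17 and 1.13). Over all 61 probes it was -0.30, which includes 12 probes whose ratios on both arrays are set by the scaling of the channels. Over all probes of the array it was 0.01, and over the brightest 10% of all probes 0.08. With 1 array on each side this difference has no test. It lay mainly in the revertant channel. Relative to the median probe of the same channel, the revertant signal of the unsaturated mitochondrial probes was lower by 0.24 on the log2 scale in replicate 2 (a change of -0.24), and the wild-type signal was higher by 0.08. A similar difference was found at the ends of chromosome III, which carry the ribosomal DNA repeats. Within 20 kb of these ends 41 unsaturated probes had medians of 1.04 and 0.71 and a median difference of -0.40, with a change of -0.31 in the revertant channel and 0.06 in the wild-type channel.

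**Figure D3:**
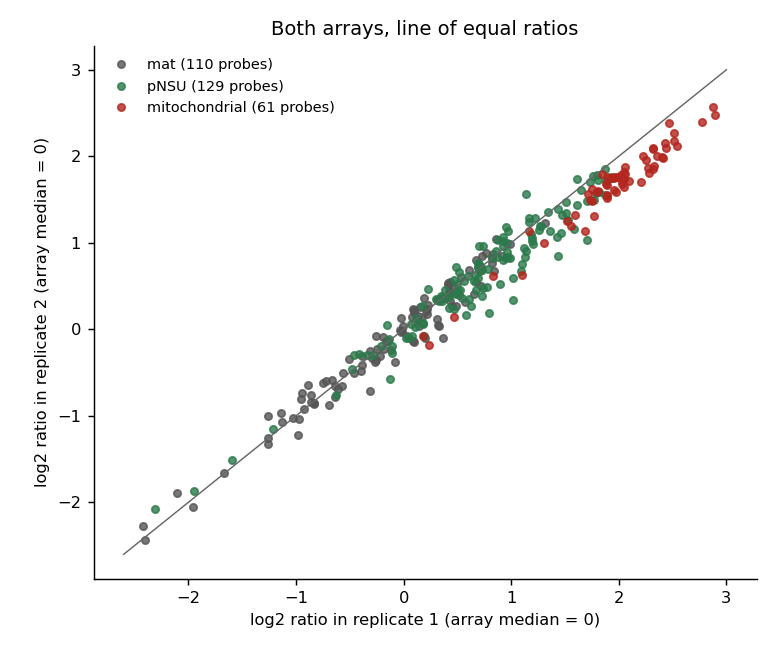
Log2 ratio in replicate 2 against that in replicate 1 for the 300 probes of the mat (grey), pNSU (green) and mitochondrial (red) sets, with the line of equal ratios. Saturated probes are drawn too, and the points of all 25 unsaturated mitochondrial probes lie below the line.

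The mat probes as a set were at the level of the chromosomes, with local stretches above and below it. Their median was 0.05 in replicate 1 and -0.03 in replicate 2, a mean of 0.01 ± 0.06 (SD, n = 2). On both arrays 51 probes were above 0 and 52 below, and 7 had opposite signs. By limma 47 of the 110 were called higher and 47 lower, near the 40.0% and 40.8% of all probes. At least 0.5 on both arrays was reached by 18 upwards and 30 downwards (14.5% and 21.8% of all probes), and at least 1 by 1 and 9 (1.93% and 9.12%). These shares are near those over all probes. Under loess correction the calls of 5 mat probes turned direction.

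The mat probes were much dimmer than the mitochondrial ones. The median wild-type spot read 9527 in replicate 1 and the median revertant spot 2813.5. Of the 110 probes 6 and 7 were saturated in the wild-type channel of replicates 1 and 2, and 0 in the revertant channel. Of the 103 unsaturated probes 7 lay above the 95th percentile of chromosome probes of their brightness range and 12 below the 5th. The replicates differed by a median of 0.00, from -0.47 at 18600 (0.36 and -0.10) to 0.26 at 35700 (from -1.26 in replicate 1).

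**Figure D4:**
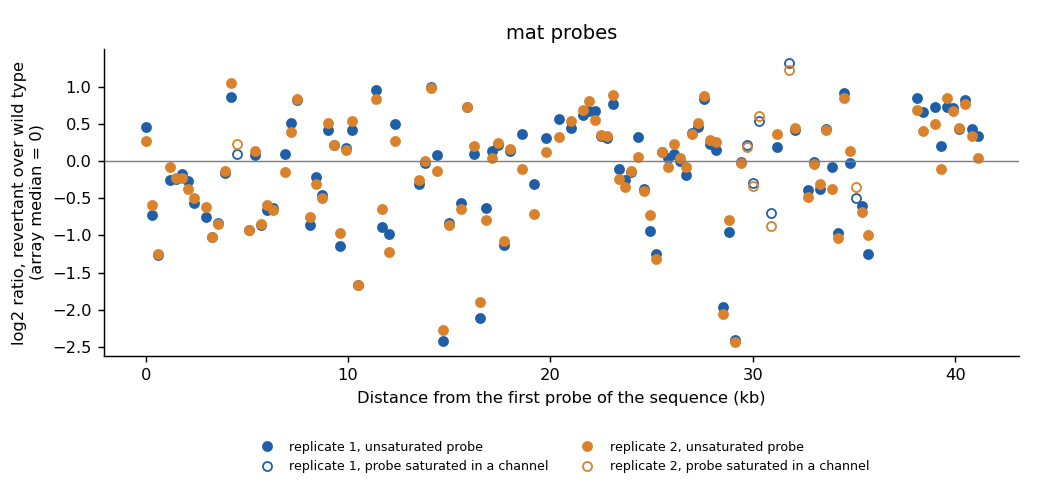
Log2 ratio of the revertant over the wild type (array median at 0) for the 110 mat probes against their distance from the first probe in kb, with replicate 1 in blue and replicate 2 in orange; filled points are unsaturated probes and open points are probes saturated in a channel. The last 10 probes, from 38100 to 41100, have a median of 0.68 and 0.47, and the probes at 14700, 16500, 28500 and 29100 reach -1.89 or lower on both arrays.

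A pair of stretches stood above the rest of the mat sequence, both chosen after their values were seen and therefore given without a test. From 38100 to the last probe at 41100, 9 of 10 probes were above 0 on both arrays, with medians of 0.68 in replicate 1 and 0.47 in replicate 2 (1.49-fold on the mean of both). The exception was the probe at 39300, with 0.20 and -0.11. The probes of this stretch were the more even ones, with an SD over probes of 0.26 against 0.73 over all 110, and the lowest after it was the last probe, with 0.33 and 0.03 (adjusted p = 0.0169 by limma). From 19200 to 22500, 7 of 8 probes were above 0 on both arrays, with medians of 0.50 and 0.44, and the probe at 19200 was the exception with -0.31 and -0.71. None of these 18 probes was saturated. The names of all 18 end in the tag f, which no source used here explains. The 60 mat probes with f had a mean of medians of 0.14, the 27 with no tag -0.15 and the 23 with R alone -0.08. The 47 probes with f from 4200 to 22500, which include the first of these stretches, had 0.07. Position and tag are not separated in these stretches. Under loess correction the means of both arrays were 0.67 and 0.57 for the last and the first of these stretches. The other 92 mat probes had a median of -0.13 and -0.14.

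The first 12 mat probes, from 0 to 3900, were on the low side, with medians of -0.42 and -0.44, and 11 of the 12 were below 0 on both arrays. None of the 12 carries the tag f, so that position and tag are not separated here either. The first probe was the exception, with 0.45 and 0.27. In steps of 3 kb the lowest were those starting at 3 kb, with a mean of medians of -0.69, and at 15 kb, with -0.61. Stretches of 1 kb with at least 3 probes ran from -0.95 and -0.80 at 28000 to 28999 up to 0.71 and 0.58 at 39000 to 39999. Neighbouring mat probes differed in size by a median of 0.54, against 0.66 over all pairs.

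Single mat probes reached the most negative values of all 300 members. The probe at 29100 had -2.40 in replicate 1 and -2.43 in replicate 2, 0.19-fold, with a wild-type signal of 47220 and 47004 and a revertant signal of 2559 and 2923. Its neighbours 300 bases away had -0.95 and -0.80 on the left and -0.01 and -0.02 on the right. The probe at 14700 had -2.42 and -2.27, and its left neighbour at 14400 had 0.08 and -0.14. The probes at 28500 (-1.96 and -2.06) and 16500 (-2.11 and -1.89) followed. The probe at 16500 has a left neighbour at 0.09 and 0.20. The replicates differed by 0.21 or less on these 4. The probes at 28500, 28800 and 29100 were low in a row, and the left neighbour of this row, at 28200, had 0.15 and 0.25. The right neighbours of the probes at 14700 and 16500 were also low. They had -0.83 and -0.87 at 15000, and -0.64 and -0.79 at 16800.

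The highest unsaturated mat probes were more modest. The probe at 14100 had 0.99 in replicate 1 and 0.98 in replicate 2, 600 bases from the low probe at 14700. The probes at 4200 (0.85 and 1.04), 11400 (0.96 and 0.83) and 34500 (0.91 and 0.85) came next. The single mat probe with at least 1 on both arrays was that at 31800, with 1.31 and 1.22, but its wild-type spot was saturated on both arrays, so that this is an upper bound. It belongs to a bright stretch of 9 probes from 28800 to 31800, in which the median wild-type signal was 63335 in replicate 1 and 5 probes were saturated in that channel on at least 1 array. The ratios of this stretch ran from -2.40 to 1.31 in replicate 1 around a median of -0.01.

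The pNSU probes lay above the array median, with large differences between and within clones. Their median was 0.78 in replicate 1 and 0.71 in replicate 2, a mean of 0.74 ± 0.05 (SD, n = 2) or 1.68-fold. On both arrays 109 of the 129 were above 0, 15 were below and 5 had opposite signs. By limma 104 were called higher and 14 lower, against 40.0% and 40.8% of all probes. At least 0.5 on both arrays was reached by 77 upwards and 5 downwards (14.5% and 21.8% of all probes), and at least 1 by 38 and 4 (1.93% and 9.12%). These counts include 37 probes saturated in a channel. Of these, 6 were saturated in both channels on both arrays (ratios set by the scaling) and 18 in the wild-type channel alone on both (upper bounds). Of the 92 unsaturated probes 44 were at least 0.5 higher on both arrays and 18 at least 1, against 14.0% and 1.5% of all unsaturated probes. Downwards the counts were 5 and 4, against 22.0% and 9.2%. Under loess correction the mean was 0.31 and the calls of 7 probes turned direction, and over the 92 unsaturated probes it was 0.55. Clones of telomere-adjacent DNA share repeats, so that 1 probe may report DNA of several chromosome ends and the probes are not independent.

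Like the mitochondrial probes, many pNSU probes were bright. The median wild-type spot read 40212.5 in replicate 1, 33 and 31 of the 129 were saturated in the wild-type channel, and 9 and 9 in the revertant channel. Of the 92 unsaturated probes 32 lay above the 95th percentile of the chromosome probes of their brightness range and 2 below the 5th. Between 30000 and 40000 the 17 unsaturated pNSU probes had a mean of medians of 0.97, against 0.16 on the chromosomes, and from 50000 upwards 15 had 0.40, against 0.16.

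The names of the pNSU probes end in m or f, tags that no source used here explains, and the ratio differed between them. The 88 probes with m had medians of 0.91 in replicate 1 and 0.84 in replicate 2, a mean of 0.87 ± 0.05 (SD, n = 2), and 85 of them were above 0 on both arrays. The 41 probes with f had 0.19 and 0.19. By limma 83 of the m probes were called higher and 1 lower, and 21 of the f probes were called higher and 13 lower. Among unsaturated probes the calls were 57 higher and 1 lower of 62 with m, and 10 higher and 13 lower of 30 with f. Of all probes 40.0% were called higher and 40.8% lower. Over unsaturated probes the means were 0.73 for 62 with m and -0.01 for 30 with f. Of these 30 with f, 21 were from pNSU71. The median wild-type signal in replicate 1 was 12470.25 for the 30 and 33048 for the 62. Tag, clone and brightness are not separated in this comparison. On the chromosomes outside their first and last 50 kb, 413 probes with m had a mean of medians of 0.38, 640 with f had 0.09 and 19653 with no tag had -0.02. These include saturated probes, 150 with m, 23 with f and 44 with no tag, unlike the unsaturated means before them.

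**Figure D5:**
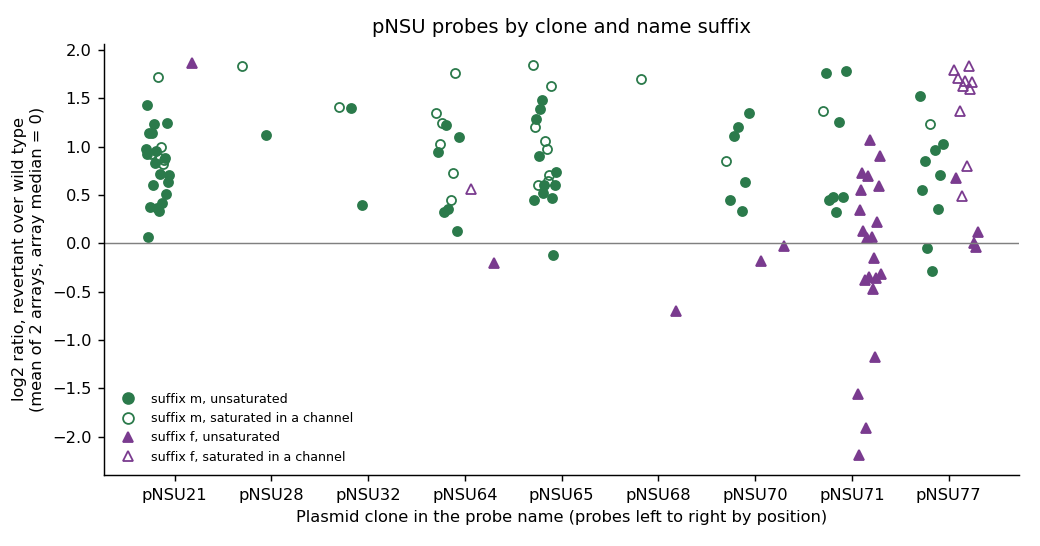
Mean log2 ratio of both arrays (array median at 0) for the 129 pNSU probes by clone, in order of position within each clone; green circles carry the tag m and purple triangles the tag f, and open symbols are probes saturated in a channel. The purple points of pNSU71 spread on both sides of 0. Of the 14 purple points of pNSU77, 10 are saturated in a channel and 8 are at least 1 on both arrays.

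The 9 clones were unequal in size, from 2 probes to 29. In pNSU21 all 27 probes were above 0 on both arrays, with medians of 0.90 in replicate 1 and 0.83 in replicate 2. With saturated probes included, pNSU64 (14 probes) had 0.82 and 0.85, pNSU65 (19 probes) 0.79 and 0.73, and pNSU70 (9 probes) 0.74 and 0.49. Over unsaturated probes alone the medians were 0.86 and 0.83 in pNSU21 (21 probes) and 0.47 and 0.35 in pNSU64 (7 probes). They were 0.63 and 0.69 in pNSU65 (11 probes), and 0.66 and 0.43 in pNSU70 (8 probes). The order of these 4 clones was not tested. The small clones pNSU28 (2 probes) and pNSU32 (3 probes) each held 1 saturated probe. Their unsaturated probes had 1.19 and 1.06 in pNSU28, and 1.53 and 1.27 and 0.42 and 0.37 in pNSU32. In pNSU68 the 2 probes differed, with 1.81 and 1.59 at a saturated m probe and -0.63 and -0.76 at an f probe.

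The clone pNSU71 changed level within its sequence. Its 8 probes from 0 to 5400, all with m, had medians of 0.92 and 0.81 and were all above 0 on both arrays. Without the 1 probe among them that was saturated, in the wild-type channel, the medians of the 7 others were 0.61 and 0.45. Its 21 probes from 6000 to 14400, all with f, had medians of 0.07 and -0.08. The step from the probe at 5400, with 1.80 and 1.78, to that at 6000, with -1.59 and -1.51, was the sharpest in size between successive probes of the clone, and the next probe, at 6300, was the lowest of the pNSU set with -2.31 and -2.08. Tag and position change together here and cannot be told apart. The probes at 8100 (-1.94 and -1.87) and 12900 (-1.21 and -1.15) were also low, each beside probes closer to 0. The lowest 1 kb stretch of all clones, from 6000 to 6999 in pNSU71, had -0.68 and -0.52.

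The clone pNSU77 held a bright block of f probes. Its first 11 probes, from 1200 to 4800, all with f, had medians of 1.71 in replicate 1 and 1.49 in replicate 2 (mean 1.60). Of these, 10 were saturated in a channel on at least 1 array. In replicates 1 and 2, 8 and 10 wild-type spots and 5 and 4 revertant spots were saturated. This level is therefore not a measured one, since it mixes bounds with ratios set by the scaling of the channels. Under loess correction its mean was 0.67, and the 1 unsaturated probe had a mean of 0.68. The 13 later probes of the clone had 0.72 and 0.38. Without the 11 probes the f probes of the set had a mean of -0.01. In the 3 probes saturated in the wild-type channel alone on both arrays, the revertant signal was lower in replicate 2: it read 31745.5 and 22456 at 2700, 61117.5 and 55323 at 3000, and 38991 and 29364.5 at 3600. The unsaturated probe, at 1500, had the largest difference of all pNSU probes, from 1.02 to 0.33, with revertant signals of 34047 and 23922 and wild-type signals of 58526 and 65161.5.

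Over all 129 pNSU probes the median difference between the replicates was -0.07, and over the 92 unsaturated ones -0.04. Single probes differed by more, such as pNSU21 at 1200, unsaturated, with 1.44 and 0.84. The largest difference upwards was that of pNSU64 at 0, from 1.14 to 1.57, where the wild-type spot of replicate 1 was saturated. The highest unsaturated probes had nearly equal values on both arrays: pNSU21 at 3000, the only f probe of its clone, had 1.87 and 1.85 (3.64-fold), pNSU71 at 5400 had 1.80 and 1.78, and pNSU71 at 1800 had 1.76 and 1.77. The probe of pNSU77 at 5100 followed with 1.61 and 1.44.

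The mapped chromosome ends gave levels on both sides of that of the pNSU set. Within 50 kb of the ends of chromosomes I and II, 589 probes had medians of 0.47 in replicate 1 and 0.44 in replicate 2. The unsaturated probes there had a mean of 0.42, against 0.55 for the unsaturated pNSU probes, while pNSU71 with 0.25 and the f probes with -0.01 had lower unsaturated means. This difference was not tested, and the unsaturated end probes were dimmer. Their median wild-type signal in replicate 1 was 15108.5, against 29316.5 for the unsaturated pNSU probes. Within 20 kb of the ends of chromosome III, 87 probes had 1.56 and 1.22, and the 41 unsaturated ones among them a mean of 0.88.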

How the data were processed

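Genomic DNA of the revertant (Cy5) and of the wild type (Cy3) was hybridised together on each of 2 Agilent 2-colour arrays, after digestion with AluI and RsaI, per the labels' protocols. The authors read the scans out with version 10.10.1.1 of Agilent Feature Extraction, per the file headers, and the submitters' processing notes name the same program. Per the file headers, the processed signals deposited by the authors are intensities after background subtraction and linear scaling of each dye, without lowess (lowess factor 0). The scaling factors were 0.136 and 0.137 in the green channel of the arrays and 0.517 and 0.46 in the red. The deposited log10 ratio equalled log10 of red over green processed signal within 0.001 (0 exceptions) and served only as a check of direction. The deposited flags mark saturated, outlier and dim spots as 0 or 1, per the file headers. The authors' deposited series table of log2 ratios was used only to count the probes it lists. For the probe positions no build is stated in the labels or headers.

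The log2 ratio of red over green was centred on the array median of all 41551 probes that were not controls (0.09 and 0.08 before centring). Probes with an outlier flag were left out (10 and 3, none of them among the 300), and saturated probes were kept. An intercept was fitted to each of 41538 probes and tested for a departure from 0 by limma 3.58.1 (R 4.3.3; lmFit and eBayes), with p-values adjusted by Benjamini-Hochberg and calls at 0.05. The step was tested on simulated data. The labels name no separate cultures, so that its p-values measure only the spread between these 2 arrays, drawn largely from all probes together. That spread may be technical, and the p-values leave out that of the wild type. Probes named are, in each set, the 4 highest and 4 lowest unsaturated ones by the mean of both arrays, the first and the last, and those with the largest difference between arrays in each direction, besides the highest and lowest 1 kb bin of at least 3 probes. Other probes and stretches named, the probes at 8700, 16500 and 15000 of the mitochondrial set, the bright and raised stretches of mat, the f block of pNSU77, the probe of pNSU21 at 1200 and the neighbours of named probes, were chosen after their values were seen. The members and lists were chosen with earlier results of these data known. Brightness is the median pixel signal, since the files used hold no mean signal, and the alternatives planned on mean signals were run on median signals. Probe positions of the mitochondrial set could not be placed on the RefSeq sequence of 19433 bases. At the positions as given the ratio had a correlation with the GC content of 60-base stretches of 0.04 (r over 61 probes), while the strongest, -0.48, was at a shift of 2952 bases, which was not adopted, so that mitochondrial genes were not assigned. Python 3.11.15 with numpy 2.4.6, pandas 2.3.3, scipy 1.17.1, biopython 1.88 and matplotlib 3.10.9 was used. Alternatives were loess, normexp with an offset of 50, no background subtraction, another centring, saturated or flagged probes, a trend in eBayes, another size limit, other summaries over probes and leaving out each replicate.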

Additional observations from a re-analysis of the deposited data

How the results depend on the processing

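Over 18 results, 132 values were computed under alternatives, of which 113 stayed within the limits set for a median or a count and 19 moved. The 113 include values that could not move, as given below. Under loess of the ratio on brightness, the mitochondrial median was 0.94, the pNSU median 0.31 and the mat median -0.088. There limma called 3 mitochondrial and 25 pNSU probes lower, against 40.2% of all probes under loess. In the same setting 46 pNSU probes were at least 0.5 higher on both arrays, against 14.5% of all probes. Under loess the limma calls of 13 probes turned direction (1 mitochondrial, 5 mat, 7 pNSU), and under the other settings 0 did. The cause was not tested. With saturated probes left out, limma called 23 of 25 mitochondrial probes higher, against 39.6% of all probes in that setting. At least 0.5 higher on both arrays were 23, against 14.0%. For pNSU the same setting gave a median of 0.55, 67 calls higher (39.6% over all probes) and 44 probes at least 0.5 higher (14.0%). These are out of 92, so that fewer probes entered these counts. The pNSU median was 0.68 with normexp on median signals, 0.67 on median signals without background subtraction and 0.84 as the median of 1 kb bins. The mat median was -0.12 as a mean over probes and -0.055 over 1 kb bins, against 0.01 as the median over probes. At the limit of 1 in place of 0.5 on both arrays, 38 pNSU probes were higher, and 1 mat probe was higher and 9 lower. Over all probes 1.93% were higher and 9.12% lower at that limit. Centring on chromosome probes outside the ends and a trend in eBayes moved none of the results computed under them. Keeping flagged probes moved none either, but none of the 300 had a flag, so that no median or size count could change. Leaving out each replicate in turn gave medians of 1.73 to 1.98 (mitochondrial), -0.03 to 0.05 (mat) and 0.71 to 0.78 (pNSU). These values have no test, since 1 array leaves no residual degrees of freedom. They could not count as moved, since the limit for a median was the SD over both arrays. No paired analysis was possible because the arrays hold 1 group. Signal over background limited none of the 300 probes, while the ceiling of the scanner limited 36 mitochondrial, 37 pNSU and 7 mat probes.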
